A study of Mus musculus with 6 samples.

Results

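The genes described here encode the proteins of the cytosolic ribosome. They were chosen by symbol from the RefSeq annotation of GRCm38.p6, whose coordinates are those of mm10, as the protein-coding genes named Rpl or Rps with a number together with Rplp0, Rplp1, Rplp2 and Rpsa, leaving out the Rps6k kinases and the binding protein Rps19bp1. This gave 90 of 21887 protein-coding genes, of which 34 were named for the small subunit and 56 for the large subunit. The rule also takes 8 paralogs marked with a letter l (such as Rpl3l and Rpl7l1) and 5 retrogenes or symbols with ps (Rpl31-ps12, Rpl34-ps1, Rpl37rt, Rps23rg1 and Rps27rt), and 1 of these 13, Rpl7l1, is among the genes with a peak below. CTCF chromatin immunoprecipitation was done in Hepa-1c1c7 mouse hepatoma cells, either untreated (0 µM chromium, 2 libraries) or exposed for 90 min to potassium chromate at 25 µM (2 libraries), and the series asks whether chromium changes CTCF occupancy at promoters. The groups are the same cell line and differ only in the chromate by their labels. Nothing in the labels ties the libraries of a group to different cultures, and the spread between them may be technical. The cell type could not be checked against its markers, since peak lists give no expression.

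Ribosomal proteins assemble with ribosomal RNA into a small subunit, which decodes the messenger RNA, and a large subunit, which joins the amino acids. Their genes are short and strongly expressed in growing cells, their promoters are rich in CpG, and their transcripts typically begin with a run of pyrimidines, the terminal oligopyrimidine tract. Many carry small nucleolar RNAs in their introns. CTCF, a DNA-binding protein with zinc fingers, sits at insulators and domain boundaries and at many promoters.

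The first pair of libraries gave 11707 peaks untreated and 14881 with chromium, and the second pair gave 4495 untreated and 1905 with chromium. The peak names show that both number 1 libraries were called against the same input and both number 2 libraries against another, so libraries with the same number share a control. A gene was counted as having a gene-end peak where the midpoint of a CTCF peak lay within 1 kb of either end of its RefSeq record. Each peak has a score from the authors' peak caller, given here as a percentile within its own list, in which a higher percentile is a stronger peak. Read totals were not among the values used, so depth is unknown, and the intervals below cover counting error over genes only.

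The promoters of 6 ribosomal protein genes are shown first, because a gene-end peak at or above the 75th percentile of its list overlapped each of them. Each run is read 5′ to 3′ on the strand of the gene from RefSeq (GRCm38.p6), from 250 bases before the annotated start of transcription to 15 bases from it. Capitals mark the CTCF core heptamers AGGGGGC or AGGTGGC or AGAGGGC or AGATGGC and the pentamer CCCTC, each searched on both strands. A core and a pentamer that overlap appear as 1 block of capitals.
Rpl37, chr15:5116363-5116627, plus strand: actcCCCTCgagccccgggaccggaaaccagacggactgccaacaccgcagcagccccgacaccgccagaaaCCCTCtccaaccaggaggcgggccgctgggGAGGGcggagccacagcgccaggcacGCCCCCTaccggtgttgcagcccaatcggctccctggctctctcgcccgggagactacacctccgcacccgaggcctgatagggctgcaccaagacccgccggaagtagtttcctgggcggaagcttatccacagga
Rpl10a, chr17:28328221-28328485, plus strand: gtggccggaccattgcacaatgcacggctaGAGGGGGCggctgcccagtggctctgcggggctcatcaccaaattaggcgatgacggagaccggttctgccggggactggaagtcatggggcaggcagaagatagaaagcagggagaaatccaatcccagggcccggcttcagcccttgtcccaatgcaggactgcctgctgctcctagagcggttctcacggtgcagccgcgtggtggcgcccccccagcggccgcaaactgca
Rpl26, chr11:68901316-68901580, plus strand: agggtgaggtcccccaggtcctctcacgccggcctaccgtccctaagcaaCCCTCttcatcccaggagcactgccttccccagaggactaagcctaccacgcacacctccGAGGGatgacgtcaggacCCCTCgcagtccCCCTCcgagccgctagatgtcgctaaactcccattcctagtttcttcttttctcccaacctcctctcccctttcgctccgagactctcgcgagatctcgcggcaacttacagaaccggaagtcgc
Rplp0, chr5:115559217-115559481, plus strand: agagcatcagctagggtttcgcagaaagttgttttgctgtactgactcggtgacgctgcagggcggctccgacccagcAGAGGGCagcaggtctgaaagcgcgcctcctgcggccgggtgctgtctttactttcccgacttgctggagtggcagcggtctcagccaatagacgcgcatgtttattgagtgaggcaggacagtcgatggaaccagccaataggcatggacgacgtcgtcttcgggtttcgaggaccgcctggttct
Rpl7l1, chr17:46782642-46782906, minus strand: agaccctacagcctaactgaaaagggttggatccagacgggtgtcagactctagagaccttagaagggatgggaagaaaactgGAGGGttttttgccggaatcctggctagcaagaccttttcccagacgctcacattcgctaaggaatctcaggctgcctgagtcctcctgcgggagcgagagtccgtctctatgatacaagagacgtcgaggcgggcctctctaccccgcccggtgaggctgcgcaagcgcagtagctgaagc
Rps3a1, chr3:86142654-86142918, minus strand: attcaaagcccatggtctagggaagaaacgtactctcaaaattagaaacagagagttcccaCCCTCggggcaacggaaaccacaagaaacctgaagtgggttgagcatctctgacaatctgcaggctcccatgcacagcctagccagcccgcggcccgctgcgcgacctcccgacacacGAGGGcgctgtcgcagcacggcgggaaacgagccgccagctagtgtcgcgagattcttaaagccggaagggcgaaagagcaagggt

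In the Rpl37 stretch the core lay on the opposite strand, 122 bases before the start, and its last base fell just past the end of the untreated 2 peak. In Rplp0 the core began 172 bases before the start and its centre was 13 bp from the midpoint of the untreated 1 peak that holds it. The Rpl26 stretch held no core but 4 pentamers, all inside the untreated 1 peak. In Rps3a1 both pentamers lay inside the untreated 1 peak, and in Rpl7l1 the pentamer lay inside a chromium 1 peak. The core of Rpl10a lay outside its chromium 1 peak.

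RefSeq promoter windows of 300 bases, from 250 bases before the start to 50 after, were found for 69 of the 90 genes, and 1 window was used for each gene. A core heptamer was present in 8 of the 13 windows of ribosomal protein genes with a gene-end peak and in 16 of the 56 without, against 29.7% of 17492 protein-coding promoters and 39.1% of the 1491 with a gene-end peak. In 5 genes (Rpl11, Rpl37a, Rpl38, Rpl7l1 and Rplp0) the core lay wholly inside a called peak, and that of Rpl7l1 is past the end of the stretch printed above. CCCTC was present in 12 of 13 and in 29 of 56 windows, or 92.3% and 51.8%. It was present in 73.7% of the 1491 promoters with a gene-end peak and in 68.4% of all promoters. This split, used again below, goes by a peak at either end of the record. Among the 13, Rpl13a, Rpl27 and Rps2 had gene-end peaks only at the far end, and the Rpl13a window is among the 8 with a core. Rpl18, among the 56, had a chromium 1 peak centred 505 bp past its annotated start. These matches are a description of the letters and were not tested.

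Ribosomal protein promoters had higher median CpG ratios than promoters at large, both with and without a peak. The median observed-over-expected CpG ratio was 0.870 in the 13 with a gene-end peak and 0.851 in the 56 without, against 0.577 over all protein-coding promoters, and the median G and C content was 59.0% and 56.8%, against 56.3%. The 1491 protein-coding promoters with a gene-end peak had a median ratio of 0.704 and a median G and C content of 59.3%. The first transcribed base was C in 24 of 69 (34.8%, against 13.7% of all promoters). A C followed by at least 4 pyrimidines began 14 of the 69 annotated transcripts (20.3%), against 2.17% of all. Only 1 of these 14 belonged to a gene with a gene-end peak, and 13 to the 56 genes without. TATAAA was present on the sense strand in 8 of 69 (11.6%, against 8.99%).

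**Figure D1:**
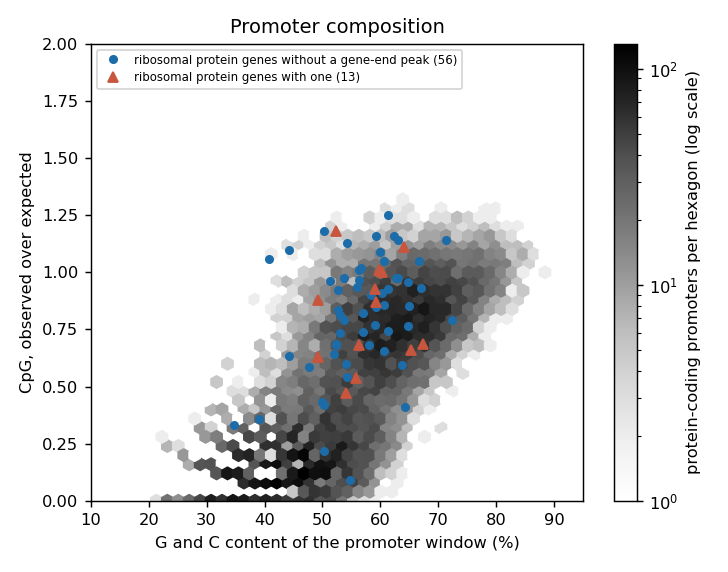
G and C content (x axis, percent) and observed-over-expected CpG ratio (y axis) of 300-base RefSeq promoter windows. Grey hexagons count all protein-coding promoters on a log scale, circles are 56 ribosomal protein genes without a gene-end CTCF peak and triangles 13 with one, and 56 of these 69 symbols lie at or above a ratio of 0.6, with medians of 0.851 and 0.870 for the whole of each kind; the promoter of Asmt, at a ratio of 5.29, lies off the axis.

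Ribosomal protein genes had gene-end CTCF peaks in 3 of the 4 lists, and the observed share was above that of all protein-coding genes in each of these. The number was 7 of 90 in untreated 1 (7.78%, exact 95% interval 3.18 to 15.4), where 4.31% of all protein-coding genes had one. It was 11 of 90 in chromium 1 (12.2%, 6.26 to 20.8), also against 4.31%, and 6 of 90 in untreated 2 (6.67%, 2.49 to 13.9), against 1.63%. In chromium 2 it was 0 of 90 (0 to 4.02), against 0.429%. The limit of 3 counts, an approximate bound on the upper side only, is 3.33%, below the 4.02% of the exact interval. The background share lay inside the interval in untreated 1 and chromium 2 and below it in chromium 1 and untreated 2. Genes are not independent samples of a condition, and no test of the genes as a set was made.

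By treatment, untreated libraries had a mean share of 7.22% ± 0.786 (SD, n = 2) and chromium libraries 6.11% ± 8.64 (SD, n = 2), a difference of -1.11 percentage points (two-sided exact permutation test over libraries, p = 1.00). With 2 libraries against 2 this test cannot give less than 0.33. The pairs moved in opposite directions, by 4.44 points in pair 1 and by -6.67 points in pair 2, so the chromium libraries lay on either side of the untreated ones. Without chromium 2 the difference was 5.00 points, and without chromium 1 it was -7.22 points. The lists differed in length in the same direction as these shares within each pair. The share of all protein-coding genes differed by 0.00457 points in pair 1 and by -1.20 points in pair 2. With each list limited to its 1905 strongest peaks the difference in the share of ribosomal protein genes was -3.89 points (exact permutation test, p = 0.33). Measured as the excess over all protein-coding genes in the same list, untreated libraries had a mean of 4.25 ± 1.11 points (SD, n = 2) and chromium libraries 3.74 ± 5.90 points (SD, n = 2), a difference of -0.513 (exact permutation test, p = 1.00), which was 3.66 without chromium 2, -4.68 without chromium 1 and 0.271 without untreated 2. No change with chromium was therefore detectable, and at this number of libraries none could have passed 0.05.

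**Figure D2:**
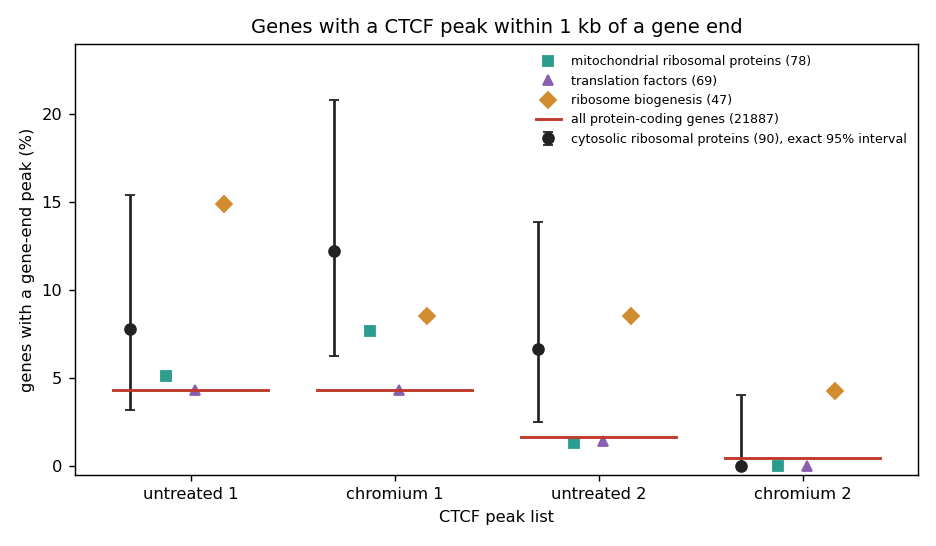
Percent of genes with a CTCF peak within 1 kb of a gene end (y axis) in each of the 4 peak lists (x axis). Circles are the 90 cytosolic ribosomal protein genes with exact 95% intervals, other symbols are lists of related genes without intervals and red lines all protein-coding genes; the circles lie above the line in 3 lists, highest at 12.2% in chromium 1, and at 0 in chromium 2.

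The shares of comparable genes are given beside these counts as a description. If each ribosomal protein gene had the share of all protein-coding genes on its own chromosome, 3.77 and 3.92 of the 90 would be called in the untreated and chromium libraries of pair 1, and 1.44 and 0.33 in those of pair 2. Protein-coding genes whose promoter CpG ratio was at least 0.6 had a share of 5.72%, 5.80%, 1.91% and 0.449% in the same order, and the 56 ribosomal protein genes among them 10.7%, 10.7%, 7.14% and 0%. Other protein-coding genes no longer than the longest of the group, 16779 bp, had shares of 4.44%, 4.36%, 1.79% and 0.383%. Genes with an end of another protein-coding gene within 1 kb had higher shares than genes at large, 6.62%, 6.91%, 2.58% and 0.608%. Of the 32 ribosomal protein genes with such a neighbour, 3, 5, 5 and 0 were called (9.38%, 15.6%, 15.6% and 0%). Of the 58 without one, 4, 6, 1 and 0 were called (6.90%, 10.3%, 1.72% and 0%), against 3.55%, 3.46%, 1.32% and 0.371% of all genes without one. In untreated 2, 5 of the 6 called genes had a close neighbour, as did 140 of the 357 called among all protein-coding genes. The untreated 2 peaks of Rpl32 and Rpl7l1, among these 5, had no other gene end within 1 kb. The part of transcription in these shares was not tested.

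Taking the lists together, 17 of the 90 genes carried a gene-end peak in 1 or more (18.9%, against 8.56% of all protein-coding genes), with 27 peaks between them. The large subunit held 14 of these among its 56 genes. The small subunit held 3 among its 34, a share close to that of all protein-coding genes. Peaks in at least 2 lists were found at 5 genes (5.56%, against 1.75%) and in 3 lists at Rpl36 and Rpl37 (2.22%, against 0.352%). In pair 1, 3 genes had a peak in both libraries (3.33%, against 1.23%), 4 in untreated 1 alone (4.44%, against 3.08%) and 8 in chromium 1 alone (8.89%, against 3.08%). In pair 2, all 6 genes with a peak in untreated 2 had none in chromium 2 (6.67%, against 1.56%), and 0 showed the reverse (against 0.361%). Both untreated lists held a peak at 2 genes (2.22%, against 0.617%), and both of these also had one in chromium 1. Hence 0 of the 90 genes had a peak in both untreated and neither chromium list (against 0.274%), and 0 the opposite pattern (against 0.0274%).

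**Figure D3:**
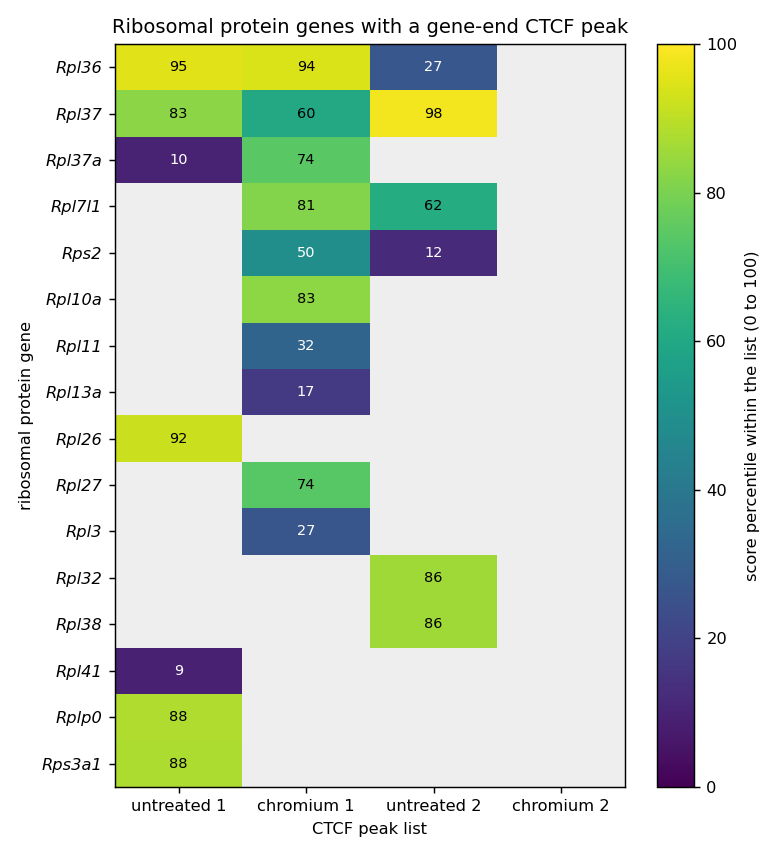
Score percentile within its list (colour and number) of the strongest gene-end CTCF peak of 16 of the ribosomal protein genes that had one (rows) in the 4 lists (columns). Grey means no peak; Rpl36 and Rpl37 are filled in 3 lists, and the chromium 2 column is empty.

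Rpl37, which encodes a zinc finger protein of the large subunit, had the most recurrent site. Its peak had a score of 5.99 in untreated 1, the 82.6 percentile of the list (chromosome 15, 5116196 to 5116412), 4.88 in chromium 1, the 60.2 percentile (5116178 to 5116451), and 8.40 in untreated 2, the 98.4 percentile (5116158 to 5116496). Chromium 2 had none. These peaks overlapped each other, by 217 bp or more, and their midpoints lay 286 to 309 bp before the annotated start. The site lies inside the neighbouring gene Card6, which encodes a caspase recruitment domain protein and whose record ends 51 bp from that of Rpl37.

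Rpl36, a gene of the large subunit, had peaks at both ends of its record. The first site was in untreated 1, at the 95.4 percentile (chromosome 17, 56613173 to 56613435), and in chromium 1, at 94.4 (56613221 to 56613429), inside Rpl36 and 972 to 993 bp from the end of Lonp1, a mitochondrial protease. The chromium 1 peak lay wholly within the untreated 1 peak. At the other end, toward Micos13, a subunit of a mitochondrial cristae complex, chromium 1 had a peak at the 2.11 percentile and untreated 2 one at the 27.3 percentile, and these were 78 bp apart without overlap. The strong site was thus common to the number 1 libraries, while the weak peaks of the other end came from different positions.

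Rps2, a small subunit protein at the messenger RNA entry side, had peaks just past its far end. These were centred inside the respiratory complex I gene Ndufb10, 80 bp from its nearer end in chromium 1 and 298 bp in untreated 2. They were at the 49.6 percentile in chromium 1 (chromosome 17, 24722026 to 24722254) and the 12.4 percentile in untreated 2 (24722203 to 24722513), and overlapped by 52 bp. A stronger site lay 2503 to 2636 bp beyond Rps2, at the other end of Ndufb10, at the 90.3 percentile in untreated 1 and 57.2 in untreated 2, with neither chromium list holding it. Rpl3l, a striated muscle paralog of Rpl3, is the next gene past Ndufb10 and had no peak within 1 kb.

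Of the genes called in 2 lists, Rpl7l1 and Rpl37a had peaks that did not coincide. Rpl7l1, a paralog of Rpl7, had 2 peaks in chromium 1, at the 81.3 and 10.4 percentiles, before its start, and a peak in untreated 2 at the 61.9 percentile on the other side of the start, 67 bp from the nearer of them. Rpl37a, another zinc finger protein of the large subunit, had a chromium 1 peak 186 bp before its start, at the 74.5 percentile, and an untreated 1 peak past its far end, at the 10.1 percentile.

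**Figure D4:**
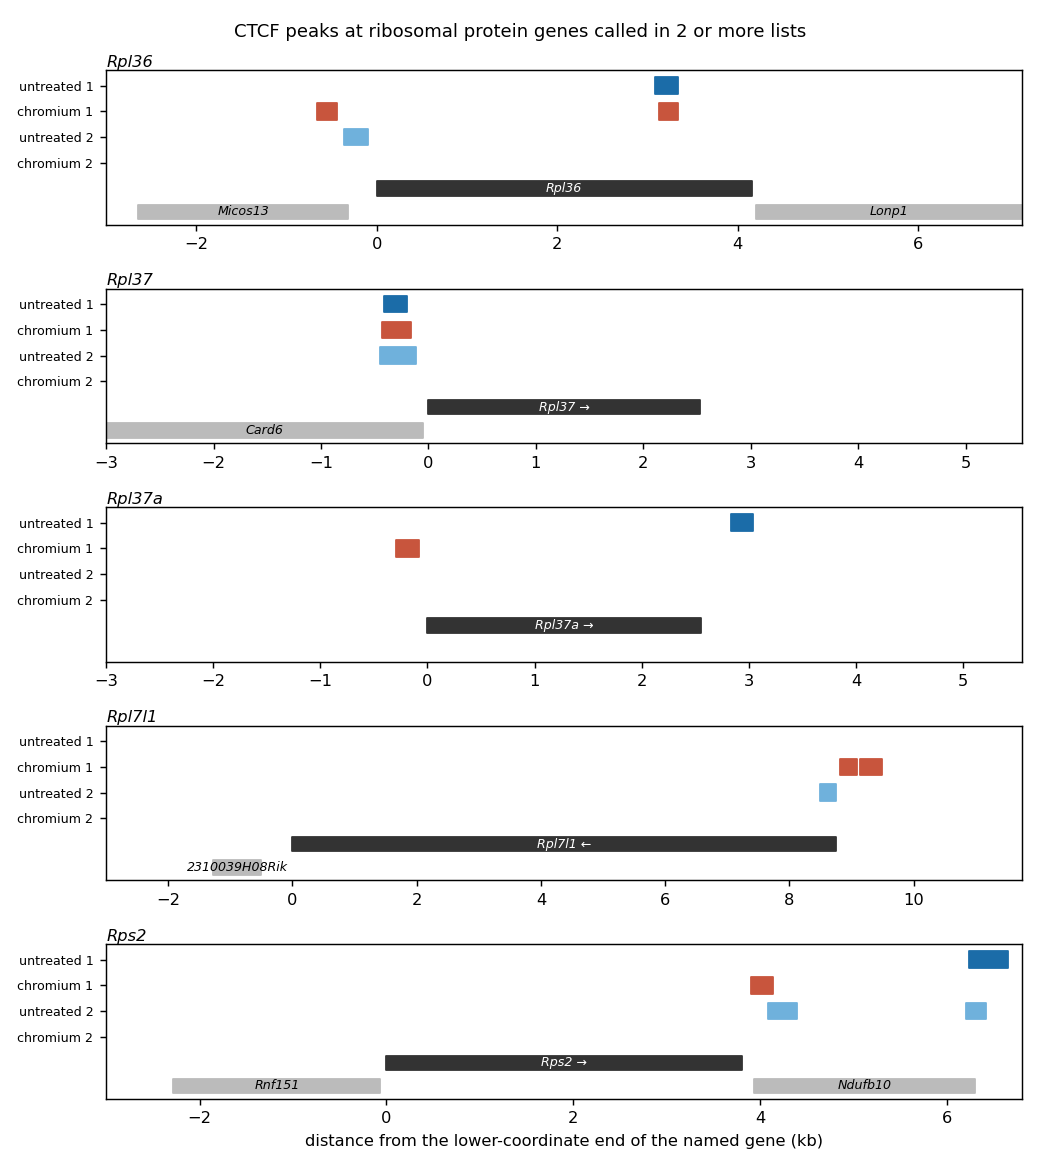
Peaks (coloured bars, 1 row for each list) around the 5 ribosomal protein genes with a gene-end peak in 2 or more lists, with the gene in black, neighbouring protein-coding genes in grey and an arrow for the direction of transcription where RefSeq promoter windows give it. The x axis is the distance in kb from the lower-coordinate end of the named gene; the bars of 3 lists stack at Rpl37, while those of Rpl37a lie at opposite ends.

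In untreated 1 alone, strong peaks lay at 3 starts. Rpl26, a large subunit protein near the exit of the nascent chain, had a peak at the 92.0 percentile, centred 104 bp before its start (chromosome 11, 68901357 to 68901567). Rplp0, which anchors the acidic P proteins of the ribosomal stalk, had one at 88.2, centred 182 bp before its start (chromosome 5, 115559163 to 115559407). Rps3a1, a small subunit protein, had one at 87.6, centred 82.5 bp before its start (chromosome 3, 86142632 to 86142869). Rpl41, whose product is the smallest ribosomal protein, had a weak one at 9.27. In chromium 1 the nearest peak of Rplp0 was 3102.5 bp away, at an end of Pxn, and that of Rps3a1 was inside the gene. The latter, 1147.5 bp from the gene end, and an untreated 2 peak 1199 bp from Rpl7 were just past the limit of 1 kb, and the untreated 1 peak of Rpl36, at 942 bp, was just within it.

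In chromium 1 alone, peaks lay at the starts of Rpl10a (83.2 percentile, centred 20 bp before the start; chromosome 17, 28328347 to 28328555) and Rpl11, which with Rpl5 and the 5S RNA can bind Mdm2 (32.1 percentile, 122 bp before the start). Others lay at the far ends of Rpl27 (73.9 percentile) and of Rpl13a (16.8 percentile, inside the gene). Rpl3, a core protein near the peptidyl transferase centre (26.6 percentile, inside the gene), had a peak at an end whose direction was not placed, since no RefSeq promoter window was found for it. In untreated 2 alone, Rpl32 had a peak at the 85.9 percentile, and Rpl38, which is known for its part in the translation of Hox transcripts, had one at each end, at 65.6 and 85.9.

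Of the 27 gene-end peaks, 20 belonged to genes with a known direction, and 14 of these were nearer to the start of the record and 6 to the far end. The midpoint lay inside the gene for 6 of the 27. The Rpl36, Rpl37 and Rps2 peaks, 9 in all, also lay within 1 kb of an end of another protein-coding gene. By list these were 2 of 7 in untreated 1, 4 of 13 in chromium 1 and 3 of 7 in untreated 2, against 13.2%, 12.8% and 13.4% of all gene-end peaks. Another gene end lay within 1 kb of 35.6% of the ribosomal protein genes and of 24.8% of all protein-coding genes. The median score percentile of the gene-end peaks of ribosomal protein genes was 87.6, 49.6 and 65.6 in untreated 1, chromium 1 and untreated 2, against 66.4, 58.0 and 52.8 for all gene-end peaks of the list.

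The genes with a gene-end peak were on 10 chromosomes, with 4 of 8 on chromosome 17 (Rpl10a, Rpl36, Rpl7l1 and Rps2), 3 of 7 on chromosome 11 (Rpl26, Rpl27 and Rpl38) and 2 of 4 on chromosome 15 (Rpl3 and Rpl37). Of all protein-coding genes on these chromosomes, 16.4%, 12.2% and 19.7% had one in some list. None of the 8 on chromosome 9, 4 on chromosome 12 and 4 on chromosome X had one, where the shares over all genes were 1.75%, 0.736% and 0.621%. Nor did the 4 on chromosome 2, 3 on 8, 4 on 16 and 2 on 18, against 11.6%, 9.78%, 7.66% and 15.1%. Chromosomes 13 and 14, with 1 and 2 of the genes, also had none, against 5.43% and 1.18%. On chromosome 7, which holds the most ribosomal protein genes, 2 of 14 had one, against 4.63%.

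Over a wider window the background share lay inside the exact 95% interval of the ribosomal protein genes in all 4 lists. A peak inside the gene or within 10 kb was found for 21 of 90 in untreated 1 (23.3%, interval 15.1 to 33.4, against 25.8% of all protein-coding genes) and 26 in chromium 1 (28.9%, 19.8 to 39.4, against 28.6%). It was found for 13 in untreated 2 (14.4%, 7.92 to 23.4, against 11.4%) and 1 in chromium 2 (1.11%, 0.0281 to 6.04, against 4.86%). These genes have a median length of 3169 bp against 17169 bp over all protein-coding genes, so this measure gives them less room inside the gene. Untreated libraries had a mean of 18.9% ± 6.29 (SD, n = 2) and chromium libraries 15% ± 19.6 (SD, n = 2), a difference of -3.89 points (two-sided exact permutation test, p = 1.00). It was 10.0 points without chromium 2, -17.8 without chromium 1, 0.556 without untreated 1 and -8.33 without untreated 2. By distance from a gene end alone, the share was 5.56%, 8.89% and 6.67% within 500 bp in untreated 1, chromium 1 and untreated 2, against 2.60%, 2.49% and 0.991%, and 23.3%, 28.9% and 14.4% within 10 kb, against 20.4%, 22.3% and 8.67%.

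**Figure D5:**
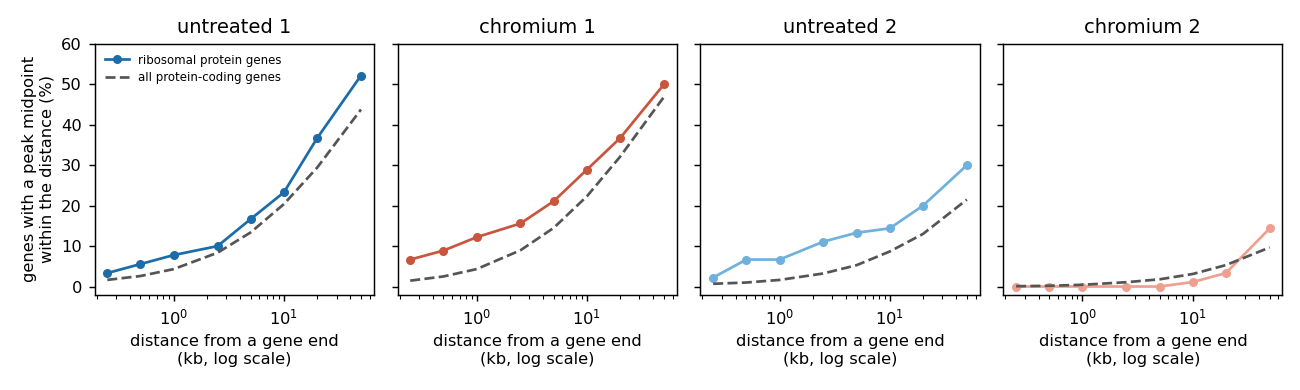
Percent of genes with a peak midpoint within a given distance of either gene end (y axis) against that distance in kb (x axis, log scale), with 1 panel for each list. Circles and solid lines are the 90 ribosomal protein genes and dashed lines all protein-coding genes; in chromium 1 the shares at 1 kb are 12.2% and 4.31%, and in chromium 2 no ribosomal protein gene is counted up to 5 kb.

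In all, 39 of the 90 genes had a peak inside or within 10 kb in at least 1 list (43.3%, against 41.4%), 16 in at least 2 lists (17.8%, against 19.9%) and 6 in at least 3 (6.67%, against 7.73%). In pair 1, 14 genes had such a peak in both libraries (15.6%, against 15.6%), 7 in untreated 1 alone (7.78%, against 10.2%) and 12 in chromium 1 alone (13.3%, against 13%). In pair 2, 12 had one in untreated 2 and not chromium 2 (13.3%, against 9.24%), and 0 the reverse (against 2.65%). Both untreated lists held a peak near 6 genes (6.67%, against 7.68%), all of them with a peak in a chromium list too, so 0 of 90 had the pattern of both untreated and neither chromium (against 1.26%), and 0 the opposite one (against 0.521%). Among the genes with no gene-end peak, Rpl12 had 3 peaks in untreated 1, the strongest at the 91.9 percentile, and 1 in chromium 1, and Rpl21 had a chromium 1 peak at 92.7 and 2 untreated 1 peaks at or below 9.63. Rps14 and Rps27 also had peaks in both number 1 libraries, none of which overlapped. Rpl41 had a site 1.63 to 1.66 kb from its end in both untreated lists, at the 45.5 and 67.6 percentiles. These peaks overlapped by 247 bp, and neither chromium list held the site. As for the site beyond Rps2, the share of such sites over the whole lists was not computed. The peaks of Rpl10a in untreated 1 and untreated 2, of Rpl27 and of Rplp0 in the other number 1 library lay at positions apart from their gene-end peaks. The only chromium 2 peak within 10 kb of any of the genes lay 6791 bp from Rpl32, at the 57.6 percentile.

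The other genes of protein synthesis came from lists made from knowledge of the pathway. Of 78 mitochondrial ribosomal protein genes, 4, 6, 1 and 0 had a gene-end peak in untreated 1, chromium 1, untreated 2 and chromium 2. Their shares were 5.13%, 7.69%, 1.28% and 0%, against 4.31%, 4.31%, 1.63% and 0.429% of all protein-coding genes. In some list 9 had one (11.5%, against 8.56%). Mrps33 was called in both number 1 libraries, at the 98.6 and 77.8 percentiles, Mrpl34 in both untreated lists, at 33.6 and 76.2, and Mrpl38 and Mrps12 in chromium 1, at 72.2 and 58.0. Mrpl34 was the 1 gene of this list with a peak in both untreated and neither chromium list. Over all protein-coding genes 0.274% had that pattern.

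Of 69 translation factor genes, 3, 3, 1 and 0 were called in the lists of untreated 1, chromium 1, untreated 2 and chromium 2. Their shares were 4.35%, 4.35%, 1.45% and 0%, against 4.31%, 4.31%, 1.63% and 0.429% of all protein-coding genes. In at least 1 list 6 were called (8.70%). Eef1b2, an exchange factor of elongation factor 1, was called in both number 1 libraries, at the 83.1 and 97.2 percentiles, Eif3g in untreated 2 at 99.0, Eif5a in chromium 1 at 77.8 and Eif2s1, the alpha subunit of eIF2, in untreated 1 at 66.4. The share of this list was close to the 8.56% of all protein-coding genes.

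Of 47 ribosome biogenesis genes, 7, 4, 4 and 2 were called in the same order. Their shares were 14.9%, 8.51%, 8.51% and 4.26%, against 4.31%, 4.31%, 1.63% and 0.429% of all protein-coding genes. In at least 1 list 12 were called (25.5%, against 8.56%). These per-list shares were above those of the cytosolic ribosomal protein genes in every list but chromium 1. Nob1, an endonuclease that matures the small subunit RNA, was called in untreated 1 at the 98.7 percentile, untreated 2 at 16.8 and chromium 2 at 30.6. Rrp1, which acts in large subunit assembly, was called in both number 1 libraries, at 58.2 and 99.5, Bysl in chromium 1 and untreated 2, at 77.8 and 10.3, and Wdr12 in untreated 1 and chromium 2, at 77.4 and 68.1. Fau and Rack1, cytosolic ribosome genes outside the naming rule, had no gene-end peak in any list. The translation factor and ribosome biogenesis lists share a gene that was called in untreated 1, and it is counted in both. The lists were described by these counts and not tested against one another.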

How the data were processed

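The samples were 4 CTCF immunoprecipitation libraries and 2 inputs, and each CTCF library has a deposited peak list. The authors used mm10, Bowtie and MACS2, per the submitters' processing notes, while versions, thresholds and the handling of multiply mapped reads are not stated there. The deposited score of each peak is the authors' value, on a scale that is not given, with a lowest value just above 2, and was used only to rank or filter peaks within a list. Peaks on chromosomes 1 to 19, X and Y were read into 1-based coordinates, which left out 14 peaks of untreated 2. Gene records and promoter windows came from RefSeq (GRCm38.p6). The strand was taken from the promoter windows, found for 69 of the 90 genes. For a gene with several annotated starts, the window used was that of the start nearest to the end of the record. Distances from a peak to the start used the annotated start nearest to the peak. The alternative by annotated start used every start of a gene.

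Shares have exact Clopper-Pearson 95% intervals, a count of 0 was given the limit of 3 counts, and groups were compared by two-sided exact permutation tests over libraries. The genes, lists and tests were chosen with earlier results of these data known. The ribosomal protein genes with a gene-end peak are named, apart from an item that is not reported here, as are those with a peak within 10 kb in 2 or more lists and up to 4 genes of each related list by the number of lists and the highest percentile. Tools were scipy 1.17.1, pandas 2.3.3, matplotlib 3.10.9 and numpy 2.4.6 under Python 3.11.15.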

Additional observations from a re-analysis of the deposited data

How the results depend on the processing

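With 2 libraries in a group, no alternative could pass 0.05 in the exact permutation test, so only direction and size can be read. The difference in gene-end share, -1.11 points, kept its sign under 13 of 14 alternatives and the wide-window difference under 10 of 12. Both totals include the replicate block, under which the sign could not change. All reversals came from leaving out a library. Leaving out each library in turn gave -7.22 to 5.00 points for the gene-end share, -17.8 to 10.0 for the share inside or within 10 kb, -4.68 to 3.66 for the excess over all genes, and 11 to 17 genes with a gene-end peak. The number of such genes, 17, was 11 with peaks above a score of 5, and 8 with every list limited to its 1905 strongest peaks. When only distance from an annotated start was used, over 69 genes, 11 genes were called. These include Rpl18, which is not among the 17. Its chromium 1 peak, at the 2.47 percentile, was centred 505 bp past its annotated start and 2259 bp from the nearest end of its record. The share over all protein-coding genes in at least 1 list is not given for these settings or with a library left out. No excess can therefore be read from these counts. With lists limited in that way the gene-end share differed by -3.89 points (exact permutation p = 0.33), with both chromium values below both untreated ones. The labels give libraries of both groups the numbers 1 and 2, and same-numbered libraries share an input, while whether they also share a culture or preparation is not stated. With the replicate block the differences of the 3 measures, -1.11, -3.89 and -0.513 points, are the same by arithmetic, since both pairs are complete. The exact sign-flip test gave p = 1.00, where 0.5 is the smallest possible. Leaving out the 13 paralogs, retrogenes and ps symbols, chosen after seeing the data, gave -1.30 points. Read depth is not known, and the shortest list limits what chromium 2 can show.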

Other observations

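Small nucleolar RNA genes lay inside 30 of the 90 ribosomal protein genes (33.3%), 59 in all, against 1.70% of all protein-coding genes. They were present in 6 of the 17 genes with a gene-end CTCF peak, Rpl13a with 4, Rpl3 with 3, Rps2 with 2 and Rpl32, Rpl37 and Rps3a1 with 1 each, and in 24 of the 73 without.

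Of 324 ribosomal protein pseudogene records, 1 overlapped a peak in untreated 1 (Rpl5-ps2), 2 in chromium 1 (Rpl21-ps10 and Rpl7a-ps6) and 0 in either number 2 list, or 0.309%, 0.617%, 0% and 0%, against 0.933%, 1.20%, 0.462% and 0.217% of all 10609 pseudogenes. A longer record has more room for an overlap, and the record lengths of these sets are not given here. How reads that match both a gene and its copies were placed is not stated in the labels.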
